A study of Drosophila melanogaster with 6 samples.

Results

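The circadian clock genes described here are the 8 genes period (per), timeless (tim), Clock (Clk), cycle (cyc), vrille (vri), Pdp1, clockwork orange (cwo) and cryptochrome (cry), chosen by name from the 14138 genes of a table on olfactory projection neurons of the fly Drosophila melanogaster. All 8 are listed in the deposited table. These neurons relay odour signals out of the antennal lobe to the mushroom body and lateral horn. GFP-marked cells were sorted by fluorescence, about 2000 for each library, and their RNA was amplified with SMART-seq2, which copies whole transcripts from small samples. One group of 3 libraries came from pupae at 36 h after puparium formation (36 h APF, called development), and the other group of 3 from adults of 5 days. Flies of both groups were untreated and kept on cornmeal medium at 25 °C with 12 h of light and 12 h of dark. The sources used here do not give the genotype, the line that drives GFP, the sex or the hour of collection. Many clock transcripts rise and fall over the day, so stage and hour of collection cannot be told apart for any difference below.

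As background, the fly clock is a set of linked feedback loops of transcription. CLK and CYC, which are bHLH-PAS transcription factors, pair up and bind E-box elements to switch on per, tim, vri, Pdp1 and cwo. PER and TIM proteins accumulate, enter the nucleus and block CLK-CYC, VRI and PDP1 repress and activate Clk, and CWO competes at E-boxes, while CRY is the blue-light photoreceptor that triggers the breakdown of TIM. The full oscillator is known from a small set of clock neurons in the brain, from photoreceptors and from some glia, and projection neurons are not among the classical clock neurons.

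Values are counts per 1000000 reads assigned to the genes of the table (CPM), obtained from the deposited log2(CPM + 1) values. Recovered reads ran from 18602612 to 42217764 per library, and 1 read was worth 0.0237 to 0.0538 CPM. The labels do not say whether libraries of 1 group stem from different flies or sorts. All p-values therefore rest on library-to-library spread, which may be technical. Libraries of a group differed beyond counting noise in every pair (a chi-square of 17.5 or more per degree of freedom). Of the projection neuron and cholinergic markers, nSyb, ChAT, VAChT, acj6, Oaz, vvl, elav and Lim1 were detected in all 6 libraries. In bulk RNA, fewer cells that express a gene and less RNA per cell cannot be told apart.

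In adult projection neurons Pdp1 was 3.01-fold and tim 4.86-fold higher in mean CPM than in developing ones, cyc was 1.88-fold lower, and per and cwo did not pass the test. Clk, vri and cry stayed below 4 CPM in every library and were under the filter of 5 CPM in at least 3 libraries. Of the 5 genes tested, 2 rose and 1 fell at an adjusted p under 0.05 (limma on log2(CPM + 1), Benjamini-Hochberg over 6814 genes). Over all tested genes 65.1% passed that threshold, 27.2% higher and 37.9% lower in adult, so 3 of 5 is close to the background. The median log2 fold change (adult minus development) of the 5 tested clock genes was 0.49, against -0.15 for all tested genes. Of the 5, tim passed the filter only through the adult libraries, in which it was at 5 CPM or more in 3 of 3 against 0 of 3 in development, and the others were above 5 CPM in all 6 libraries. A higher level of tim in adult was therefore a condition of its entering the test, and the count and median above include it. Without tim, 1 of 4 clock genes rose and 1 fell, or 50%. Among the 6494 tested genes that did not pass the filter through 1 group only (3 of 3 against 0 of 3 libraries), 63.5% were called.

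**Figure D1:**
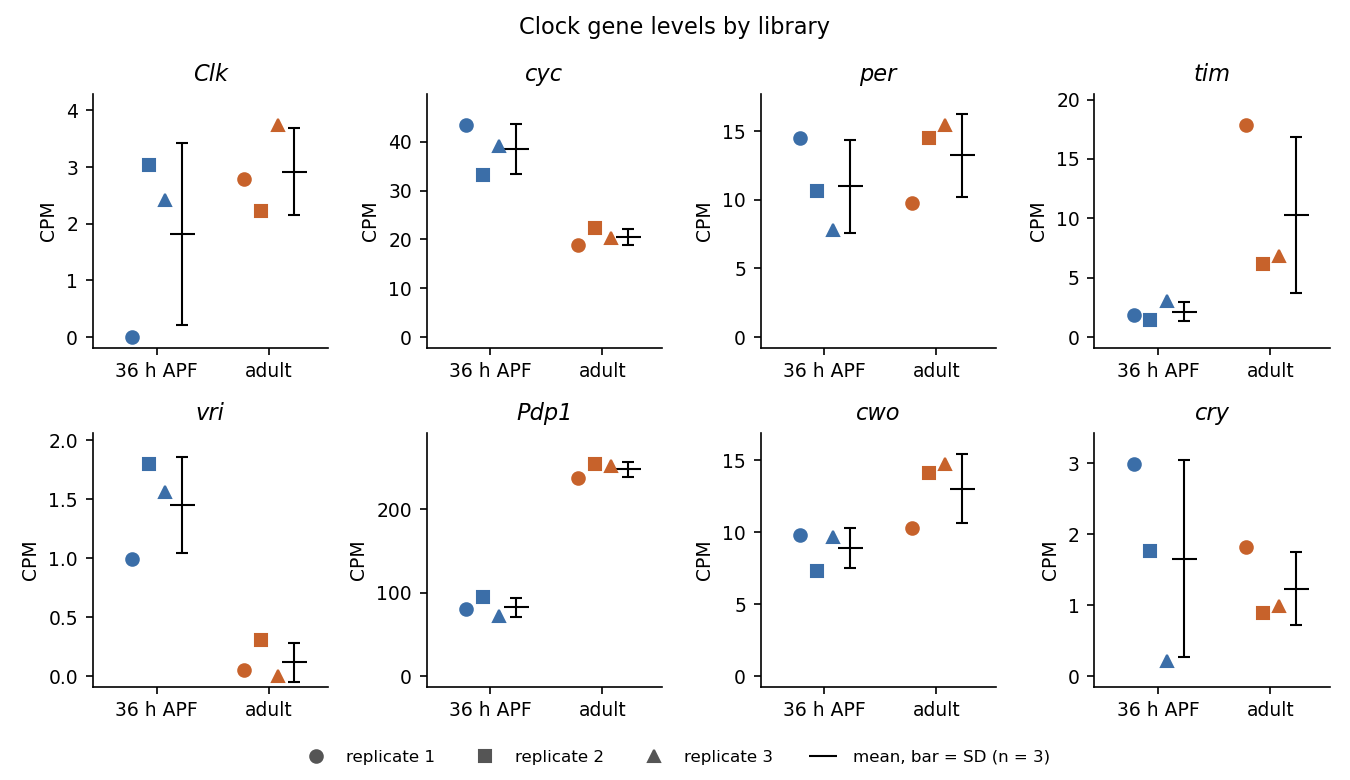
CPM of each clock gene in the 3 libraries at 36 h APF (blue) and the 3 adult libraries (orange), with symbols for the replicate number and a black bar for the mean and SD (n = 3). The groups do not overlap for cyc, tim, vri, Pdp1 and cwo, and they overlap for Clk, per and cry. Such separation was found in 43.4% of all 14138 genes and 69.0% of tested genes. Each panel has its own vertical scale.

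Clk, the activator whose presence is needed for the oscillator, was low and in 1 library had no read. It had 0, 3.04 and 2.42 CPM in development replicates 1, 2 and 3 and 2.80, 2.23 and 3.74 CPM in adult replicates 1, 2 and 3. These values are 0, 105 and 45 reads in development and 118, 73 and 152 reads in adult. Development replicate 1 thus stood apart at 0 of 31139403 reads, which allows up to 0.0963 CPM (3 reads, counting error only), while the other 5 libraries lay between 2.23 and 3.74 CPM and the groups overlapped. The development mean was 1.82 ± 1.61 CPM, and the adult mean was 2.92 ± 0.763 CPM (SD, n = 3). Without development replicate 1 the development mean was 2.73 CPM and the adult to development ratio went from 1.60 to 1.07. Clk did not pass when the filter was lowered to 1 CPM (limma, adjusted p = 0.217, where 60.2% of 8031 genes passed) or removed (0.431), and its log2 difference of 0.69 had a 95% interval of -0.67 to 2.05 in the fit with no filter.

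cyc, which encodes the constant partner of CLK and whose transcript does not cycle in clock cells, was the only tested clock gene lower in adult. Its levels were 43.4, 33.2 and 39.1 CPM in development and 18.9, 22.3 and 20.2 CPM in adult. Every development library lay above every adult library. The mean of 38.6 ± 5.11 CPM in development compared with 20.5 ± 1.69 CPM in adult (SD, n = 3), and the log2 fold change was -0.88 ± 0.174 (SE; adjusted p = 0.000569, limma). This gene has 1 annotated transcript and a short span of 2.17 kb on 3L (FBgn0023094, 19813770 to 19815938, BDGP6.54).

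per, whose protein is the repressor at the core of the loop, had 14.5, 10.6 and 7.79 CPM in development and 9.78, 14.5 and 15.4 CPM in adult. The groups overlapped almost over their whole range. The log2 fold change was 0.26 ± 0.263 (SE; limma, adjusted p = 0.391), with a 95% interval of -0.30 to 0.83.

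tim, which encodes the partner that stabilises PER and is destroyed in light, had 1.86, 1.48 and 3.01 CPM in development and 17.8, 6.20 and 6.84 CPM in adult. Each adult library lay above each development library, but adult replicate 1 was 2.88 times adult replicate 2. The log2 fold change was 1.74 ± 0.376 (SE; limma, adjusted p = 0.00108), larger in size than that of all but 11.6% of tested genes. Without adult replicate 1 the ratio of mean CPM was 3.08 in place of 4.86 and the log2 fold change 1.30 (adjusted p = 0.00458). In the annotation, 7.74% of the exonic bases of tim also belong to a noncoding RNA on the opposite strand, lncRNA:CR46495, and 2.15% to a small nucleolar RNA on the same strand. Whether the counting used strand is not given, so reads in the first stretch cannot be assigned with certainty.

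Among the adult libraries, replicate 1 had the highest tim and the lowest per, and it was also the lowest for cyc, cwo and Pdp1. In development, replicate 1 had the highest per and replicate 3 the highest tim.

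vri and Pdp1 form the second loop, in which VRI represses Clk transcription and PDP1 activates it, both through the same kind of promoter element. vri had 0.996, 1.79 and 1.56 CPM in development and 0.0474, 0.305 and 0 CPM in adult, from 31, 62 and 29 reads against 2, 10 and 0 reads. The groups did not overlap, which held for 43.4% of all 14138 genes. In all, 122 reads against 12 gave a level 14.0 times higher in development after scaling to depth (95% exact binomial interval 7.70 to 27.7, counting error only). Of the 12 adult reads 10 were in adult replicate 2. The ratio of mean CPM, development over adult, was 12.3 over all libraries, 61.2 without adult replicate 2 and 8.22 without adult replicate 3. vri was too low for the test at 5 CPM. In the fit with no filter it was lower in adult (log2 fold change -1.13 ± 0.182 (SE), limma, adjusted p = 0.00365), where 33.0% of 14138 genes passed and 19.6% were lower. In adult replicate 3 no read of vri was recovered from 40668115, which allows up to 0.0738 CPM.

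Pdp1 was the most abundant clock gene in CPM at both stages. It had 80.5, 94.6 and 71.5 CPM in development and 236.9, 253.7 and 252.2 CPM in adult. The groups were far apart, and the adult libraries lay within 1.07-fold of each other. The mean went from 82.2 ± 11.7 to 247.6 ± 9.29 CPM, and the log2 fold change was 1.59 ± 0.123 (SE; adjusted p = 8.99e-08, limma). Pdp1 made up 55.5% ± 5.17 of the summed CPM of the 8 clock genes in development and 80.1% ± 0.685 in adult (SD, n = 3). The sum over the 8 genes went from 147.7 ± 10.8 to 308.9 ± 9.11 CPM, whereas without Pdp1 it was 65.5 ± 7.32 in development and 61.3 ± 0.728 in adult. Pdp1 has 13 annotated transcripts over 55.9 kb (FBgn0016694, 3L, 7811458 to 7867369, BDGP6.54), and the isoform that acts in the clock is known to be only one of its products. The table gives a single value for the gene, so the isoforms that make up the adult level cannot be told apart.

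Clk lies near Pdp1 on 3L (FBgn0023076, 7763233 to 7775603), with a gap of 35.9 kb that holds 1 other annotated gene, CG32369. That gene had 6.97, 10.05 and 8.71 CPM in development and 39.0, 32.0 and 30.7 CPM in adult. Of these neighbours, Pdp1 and CG32369 were thus higher in every adult library, and Clk was not. The other clock genes are spread over X (per), 2L (tim and vri), 3L (cyc) and 3R (cwo and cry).

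cwo, an E-box repressor that sharpens the cycle, had 9.83, 7.32 and 9.62 CPM in development and 10.3, 14.1 and 14.7 CPM in adult. All adult libraries lay above all development libraries, by a narrow margin for adult replicate 1, and the groups of 3 did not overlap in 69.0% of all tested genes. The log2 fold change of 0.49 ± 0.235 (SE) did not pass (limma, adjusted p = 0.0813). A call was made after scaling by the median of ratios (0.63, adjusted p = 0.0296), TMM scaling (0.66, 0.0237), array weights (0.62, 0.0213), no variance trend (0.49, 0.0372) and without adult replicate 1 (0.64, 0.0356), and over all settings its adjusted p ran from 0.0213 to 0.257.

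cry, the light input of clock cells, had 2.99, 1.77 and 0.215 CPM in development and 1.82, 0.885 and 0.984 CPM in adult. Development replicates spanned a 13.9-fold range that enclosed all adult libraries. With the filter lowered to 1 CPM it did not pass (log2 fold change -0.11 ± 0.423 (SE), limma, adjusted p = 0.834). The sign of its difference depends on 1 library, since the log2 difference was 0.26 without development replicate 1 and -0.60 without development replicate 3. Of its exonic bases 17.4% also belong to lncRNA:CR46393 on the same strand, and reads there cannot be assigned with certainty.

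**Figure D2:**
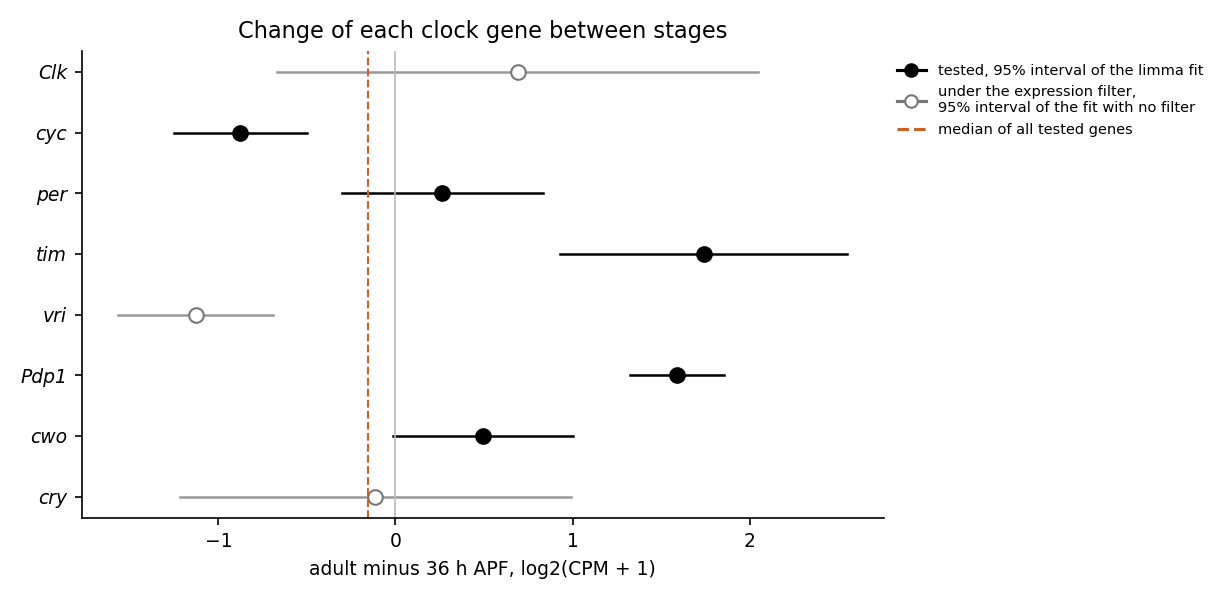
Change of each clock gene from development to adult, in log2(CPM + 1), with its 95% interval; filled points are tested genes and open points are genes under the filter, shown with the interval of the fit with no filter. tim (1.74) and Pdp1 (1.59) lie right of 0, cyc (-0.88) and vri (-1.13) left of it, and the intervals of per, cwo, Clk and cry cross 0; the dashed line is the median of all tested genes, -0.15.

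Levels of different genes can be compared only per length, here as mean CPM per kb of exon. In development the order was cyc (23.7), Pdp1 (6.77), per (2.42), cwo (1.75), cry (0.873), Clk (0.403), vri (0.306) and tim (0.301). The library ranges of cyc and Pdp1 were separate from each other and from per, and from per downward each gene overlapped with the next. In adult the order was Pdp1 (20.4), cyc (12.6), per (2.92), cwo (2.56), tim (1.46), cry (0.649), Clk (0.647) and vri (0.0248). Pdp1 and cyc had changed places, tim had moved up past cry, Clk and vri, and the neighbours from per to Clk overlapped. Among all annotated genes of the table, Pdp1 per kb lay above 62.1% in development and above 76.1% in adult, per above 54.2% and 54.9%, and vri above 38.1% and 20.0%. Per kb of its longest transcript, rather than of all exons, Pdp1 was at 12.0 in development and 36.1 in adult, with the same places in the order.

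**Figure D3:**
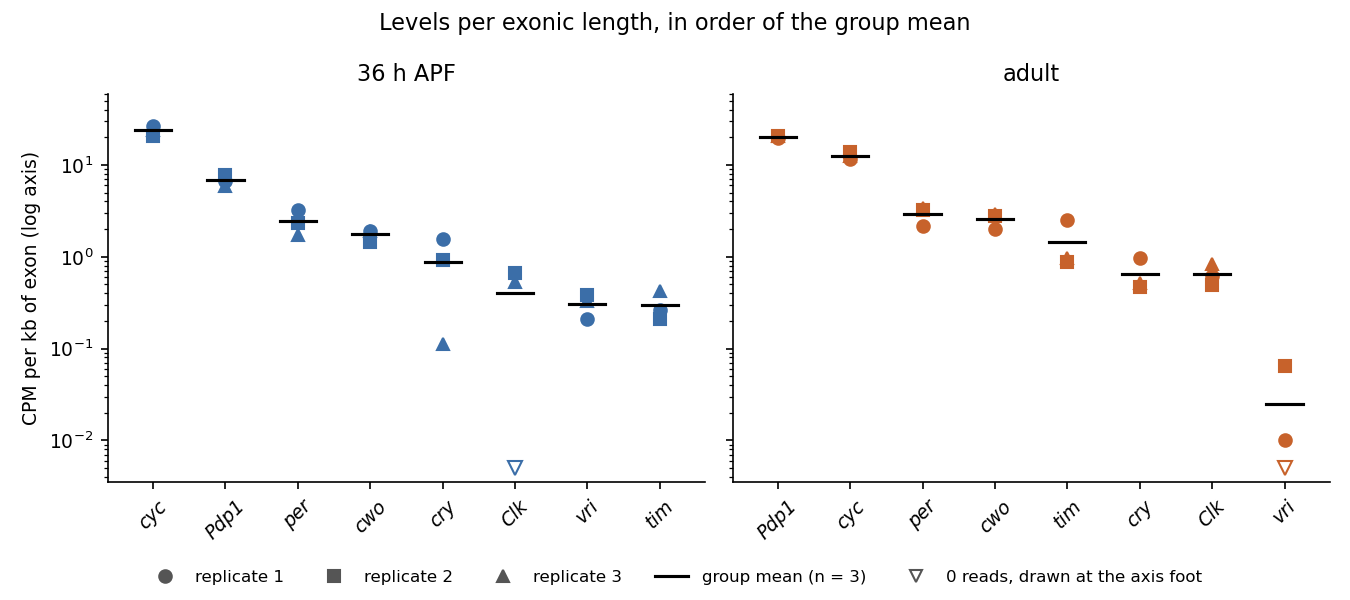
CPM per kb of exon (log axis) of the clock genes in each library, ordered by the group mean (black line) at 36 h APF and in adult. cyc (23.7) leads in development and Pdp1 (20.4) in adult, and vri falls to 0.0248 in adult; open triangles at the foot of the axis are libraries with 0 reads.

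The balance within pairs of genes whose products act together was compared between the groups for 4 pairs, none of which could reach a p under 0.1. The difference of log2(CPM + 1) between per and tim was 2.44, 2.23 and 1.13 in development and -0.80, 1.11 and 1.07 in adult. per was thus above tim in 5 of 6 libraries, and the groups barely separated (mean difference adult minus development -1.48). That difference was -0.85 without adult replicate 1, and -0.83 (exact permutation p = 0.3) with a pseudocount of 5 in place of 1. The difference between vri and Pdp1 was -5.35, -5.10 and -4.82 in development and -7.83, -7.61 and -7.98 in adult. This was a shift of -2.72, with SDs of 0.264 and 0.189. Adult vri lay at 0 to 0.305 CPM, so the size of that shift depends on the pseudocount. It was -4.66 with a pseudocount of 0.1 and -1.87 with one of 5. For Clk and cyc the difference was -5.47, -3.08 and -3.55 against -2.39, -2.85 and -2.16, a shift of 1.57. That shift was 0.85 without development replicate 1, the library with 0 reads of Clk. For these 3 pairs the exact two-sided permutation p was 0.1, the smallest that 3 against 3 libraries allow, and 0.133 after adjustment over the 4 pairs compared. For Clk and per the groups overlapped (shift 0.43; exact permutation p = 0.9, 0.9 after adjustment), and without development replicate 1 the shift was -0.41.

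**Figure D4:**
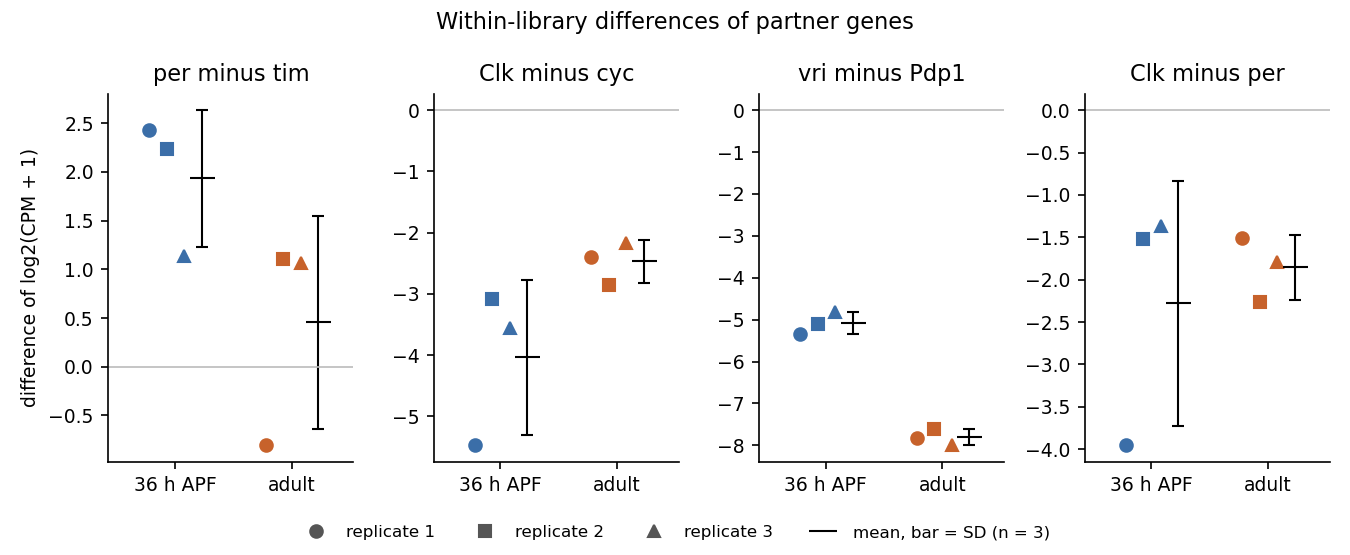
Difference of log2(CPM + 1) between partner genes within each library, at 36 h APF (blue) and in adult (orange), with the mean and SD (n = 3) in black. The adult values of vri minus Pdp1 lie at or below -7.61 and the development values at or above -5.35, while for Clk minus per the groups overlap.

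The clock genes also differed in how steady they were between libraries of a group. The within-group SD on the log2 scale was 0.147 for Pdp1 and 0.156 for cyc, and 67.3% and 63.4% of tested genes had a larger one. It was 0.371 for per and 0.599 for tim, which only 11.8% and 2.10% of tested genes exceeded. tim rested on 51 to 753 reads and per on 145 to 627 reads per library. For Clk (0.802) and cry (0.660) the spread came mainly from development libraries, of which 1 had 0 and 4 reads respectively.

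Genes whose pattern was most like that of a clock gene were found by the root mean square difference of log2(CPM + 1), centred on each gene's mean over the 6 libraries. Nearest to Pdp1 were Rim (0.0904), which encodes an active zone protein, DnaJ-H (0.103) and the T-type calcium channel gene Ca-alpha1T (0.104). Nearest to cyc were spoon (0.0619), Liprin-beta (0.0648) and Pp2A-29B (0.0859), a scaffold subunit gene of protein phosphatase. Nearest to per were Kat60 (0.101), oaf (0.109) and Sec8 (0.110), and nearest to cwo were smg (0.0945), godzilla (0.0996) and Atg1 (0.106). For tim the nearest were Elk (0.391), Stat92E (0.394) and UQCR-6.4 (0.395), so no tested gene with a name followed tim closely.

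The rest of the pathway was described by 5 lists of 45 genes, of which 43 were found and 35 tested. Of these, Dh44, Pdfr and ITP passed the filter only through the adult libraries and qsm only through the development libraries, so their direction was a condition of entering the test. Of the other 31, 14 rose and 8 fell, or 71.0%, beside 63.5% of the 6494 tested genes that did not depend on 1 group in this way. Kinases and phosphatases that set the pace of PER and TIM were all well detected, with 1 of 9 higher and 4 lower, or 55.6%. The most abundant, mts, which encodes the catalytic subunit of protein phosphatase 2A, fell from 1526 ± 23.3 to 1080 ± 43.8 CPM (log2 fold change -0.50). CkIIalpha, the catalytic subunit gene of casein kinase 2, fell from 355.6 ± 50.0 to 215.4 ± 22.0 CPM (log2 fold change -0.72), and Bdbt, whose product binds the PER kinase Doubletime, fell from 51.8 ± 2.36 to 34.3 ± 7.59 CPM. nmo, a kinase gene, rose from 537.3 ± 24.1 to 781.4 ± 38.9 CPM. These 4 had adjusted p-values of 0.00772 or lower (limma).

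Of 5 genes for the breakdown of clock proteins, 2 rose and 1 fell, or 60%, beside the same background of 63.5%. jet, the F-box gene for the light-driven loss of TIM, rose from 38.1 ± 5.79 to 62.8 ± 15.5 CPM (log2 fold change 0.68; limma, adjusted p = 0.00691). Cul3, which acts on TIM in the dark, fell from 120.6 ± 4.03 to 77.5 ± 4.41 CPM (-0.63; 0.000327). slmb, the F-box gene for PER, passed narrowly (0.39; 0.0468) and lost its call in 9 of 17 alternative settings, with an adjusted p of up to 0.199. ctrip, the most abundant and a ubiquitin ligase gene that acts on CLK, had 131.7 ± 22.5 and 146.4 ± 20.2 CPM and did not pass (adjusted p = 0.362).

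Of 8 tested cofactors of transcription and translation, 3 rose and 2 fell, or 62.5%, beside the same background of 63.5%. Atx2, whose product promotes translation of per, rose from 107.7 ± 31.2 to 207.8 ± 6.42 CPM (log2 fold change 0.98; limma, adjusted p = 0.000126), and kay, the fly Fos gene, rose from 30.5 ± 4.85 to 55.2 ± 9.05 CPM (0.83; 0.00094). Eip75B, a nuclear receptor gene that also answers to ecdysone, fell from 376.4 ± 113.1 to 218.3 ± 11.2 CPM (-0.74; 0.00107). brm, a chromatin remodeller gene, fell with an adjusted p of 0.0143 and lost its call in 8 of 17 settings, the scalings included. kis, the most abundant, did not pass (adjusted p = 0.489), passed with TMM scaling (0.0495) and changed sign with quantile normalization.

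Only 3 genes of the light input list were tested, nocte from temperature entrainment among them, and 1 rose and 2 fell, too few for a pattern of the list. norpA, the phospholipase C gene of phototransduction, rose from 280.7 ± 8.68 to 922.0 ± 12.7 CPM (log2 fold change 1.71 ± 0.087 (SE); limma, adjusted p = 1.46e-09). qsm, a gene known from light responses of clock neurons, went the other way, from 19.8 ± 2.59 to 0.434 ± 0.497 CPM (-3.91 ± 0.309; 1.07e-07), and it passed the filter only through the development libraries. nocte, known from temperature entrainment, fell with an adjusted p of 0.0352 and lost its call in 9 of 17 settings. The opsin genes ninaE, Rh5, Rh6 and Rh7 were under the filter. Rh7 had 4.91, 3.33 and 7.69 CPM in development and 1.78, 1.68 and 1.45 CPM in adult, lower without overlap. ninaE was higher in adult without overlap, and the groups overlapped for Rh5 and Rh6.

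Of 10 tested genes of clock output and neuropeptides, Dh44, Pdfr and ITP passed the filter only through the adult libraries. The other 7 all rose, beside 1663 higher among the 6494 tested genes that did not pass the filter through 1 group only. Mef2, a transcription factor gene that the clock regulates in clock neurons, went from 12.1 ± 5.13 to 231.8 ± 10.1 CPM (log2 fold change 4.23 ± 0.239 (SE); limma, adjusted p = 4.19e-09). Dh44, which encodes a peptide of the output circuit, went from 2.84 ± 1.10 to 41.6 ± 5.11 CPM (3.50 ± 0.246; 3.47e-08). unc79, a subunit gene of the sodium leak channel through which the clock sets neuronal firing, was the most abundant and rose from 345.9 ± 36.5 to 595.8 ± 15.1 CPM (0.79 ± 0.0996; 1.04e-05). Many genes of this list act in neurons outside the clock as well.

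Relatives of the clock genes by protein family gave 3 rises and 1 fall among 7 tested, or 57.1%, beside the same background of 63.5%. tgo, the general bHLH-PAS partner and so a relative of cyc, fell as cyc did, from 211.4 ± 30.3 to 102.4 ± 13.5 CPM (log2 fold change -1.04; limma, adjusted p = 1.43e-05). Met, a juvenile hormone receptor gene of the same family, rose from 14.0 ± 6.11 to 43.3 ± 7.58 CPM (1.63; 0.000115). phr6-4, a photolyase gene of the family of cry, rose from 4.35 ± 0.985 to 17.0 ± 5.41 CPM (1.73; 9.03e-05). Its development libraries had 4.11, 3.50 and 5.43 CPM, so it met the filter of 5 CPM through the adult libraries. Its direction was thus in part a condition of entering the test, and the count above includes it. The tim relative timeout stayed below 1 CPM in all libraries.

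**Figure D5:**
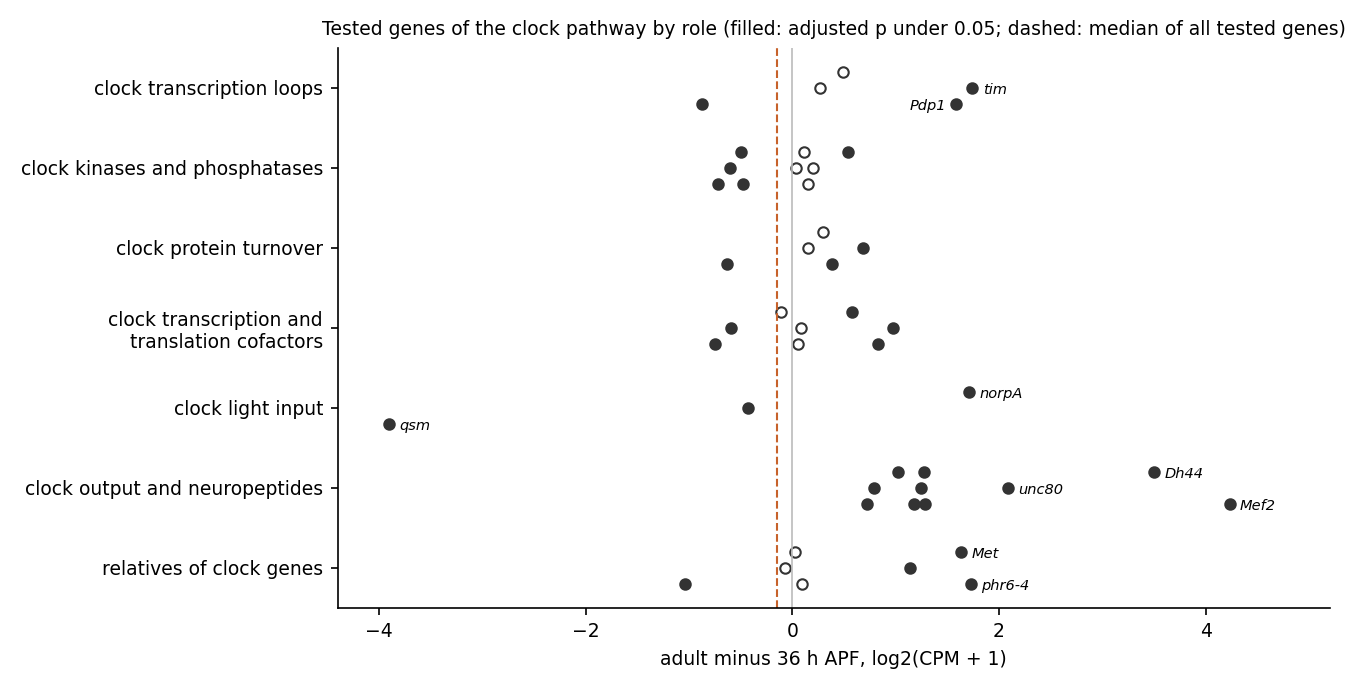
Log2 fold change (adult minus development) of every tested gene of the clock loops, of 5 lists of clock pathway genes and of relatives by protein family, with filled points for an adjusted p under 0.05. The 10 output genes all lie right of 0, led by Mef2 (4.23) and Dh44 (3.50), and qsm (-3.91) lies farthest left; Dh44, Pdfr and ITP passed the filter only through adult libraries and qsm only through development.

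Cells that are known to run the clock could add clock transcripts to a sort, so their markers are given beside these values. The 7 clock neuron markers (Pdf, Pdfr, gl, Dh31, CCHa1, ITP and Trissin) summed to 30.3 to 39.8 CPM in development and 68.6 to 138.6 CPM in adult, with Dh31 the most abundant. Of the 3 tested, Pdfr and ITP passed the filter only through the adult libraries, and Dh31 rose. gl, under the filter, had 1.32, 1.27 and 1.99 CPM in development and 0.474, 1.04 and 0.0492 CPM in adult. It was thus lower in adult without overlap, whereas Trissin, also under the filter, was higher without overlap. The groups overlapped for CCHa1. Pdf, the defining peptide gene, had 0.514, 0 and 0 CPM in development and 3.53, 33.1 and 6.17 CPM in adult. The adult library with the most Pdf was replicate 2, and that with the most tim was replicate 1. The 8 glial markers summed to 302.9 to 342.9 CPM in development and 492.0 to 635.3 CPM in adult; nrv2 led in development and Gs2 in adult, and the defining glial gene repo lay between 0.753 and 1.34 CPM in all libraries. Of 6 glial markers tested, alrm, Gs2 and Tret1-1 were higher in adult, Tret1-1 having passed the filter only through adult libraries, and wrapper and nrv2 were lower. wrapper had 6.06, 2.14 and 1.89 CPM in adult, so it met the filter through the development libraries. moody, under the filter, went from a mean of 2.37 to 0.542 CPM, and its groups did not overlap. From development to adult, mean CPM went from 8.40 to 26.3 for alrm and from 50.9 to 333.5 for Gs2. The 11 photoreceptor markers summed to 2.15 to 3.31 CPM in development and 50.9 to 57.9 CPM in adult. Arr2 was the most abundant in adult (26.9 to 29.4 CPM). Among the opsin genes, Rh3 was at 0 in 5 of 6 libraries, and the groups overlapped for Rh3, Rh5 and Rh6. They did not for ninaE, with 0, 0 and 0.161 CPM in development and 1.82, 3.69 and 0.689 CPM in adult. Rh4 had 0 CPM in every development library and 0.213, 0.885 and 0.516 CPM in adult. Of 7 fat body markers found, 5 were tested, of which Yp1, Yp2 and Yp3 passed the filter only through adult libraries and Lsp2 only through development, and the sum was 39.1 to 61.3 CPM in development and 55.6 to 77.9 CPM in adult. The 7 markers of other neurons summed to 43.0 to 55.3 CPM in development and 247.3 to 513.8 CPM in adult. VGlut led in development (mean 17.0 CPM) and Vmat in adult (92.2 to 300.4 CPM). Of the 5 tested, 4 rose (Gad1, Vmat, Trh and VGAT), 2 of which (Gad1 and Trh) passed the filter only through adult libraries, and VGlut did not pass. Gad1 had 1.83, 1.27 and 3.49 CPM in development and 98.1, 115.6 and 120.4 CPM in adult. ple and Tdc2 were under the filter, and their groups overlapped. Hemocyte markers summed to 356.1 to 491.1 and 224.1 to 250.2 CPM, nearly all from Pxn, and muscle markers to at most 3.76 CPM. The part of any of these cells in the levels of tim, Pdp1 and the output genes was not tested.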

How the data were processed

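Per the labels' protocols, GFP-marked cells were sorted and sequenced with SMART-seq2. The authors deposited log2 values, which sum to 1000000 per library after conversion and are therefore log2(CPM + 1). The submitters' processing notes list STAR 2.4.2a and HTSeq 0.7.1 but not their roles. The sources used here do not give the build, annotation, strand or filters used for counting. One row without a symbol (at most 8.6e-05% of a library) was left out. Reads were recovered from the CPM steps (100% of low values whole within 0.1 read), and intervals from them cover counting error only.

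Groups and replicate numbers came from titles. Genes with at least 5 CPM in at least 3 of 6 libraries (6814) were tested with limma 3.58.1 in R 4.3.3 (trend, two-sided, group only) on log2(CPM + 1), which understates changes of low genes, with Benjamini-Hochberg adjustment. The code was checked on simulated data. Ratios of partner genes were tested by exact permutation. Lengths and coordinates are those of BDGP6.54, Ensembl release 115, with 14025 of 14138 symbols matched.

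The 8 members and the gene lists were chosen with earlier results of these data known, and no pattern is independent support for those. Beyond the 8, the text names the 2 largest rises and falls and the most abundant gene of each list, the 3 genes nearest each tested member, and the most abundant markers. Pdf, Pdfr, ITP, repo, alrm, Tret1-1, wrapper, the fat body genes, Rh3, timeout, the opsin genes and CG32369 were added after their values were seen. So were gl, Trissin, CCHa1, moody, Gad1, VGAT, Trh, ple and Tdc2. Alternatives covered pseudocount, filter, scaling, replicate block, variance model, library weights, voom and leaving out each library.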

Additional observations from a re-analysis of the deposited data

How the results depend on the processing

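The calls of tim, cyc and Pdp1 and the lack of a call for per held in all 17 alternative settings. The log2 fold change ran from 1.03 to 2.28 for tim (adjusted p up to 0.0292), from -0.98 to -0.70 for cyc, from 1.49 to 1.77 for Pdp1 and from 0.06 to 0.47 for per. cwo passed with median of ratios scaling (0.63), TMM scaling (0.66), array weights (0.62) and no variance trend (0.49), and ran from 0.37 to 0.64 with each library left out in turn. With no filter 2 clock genes were lower, the added one being vri. For vri the log2 difference was -3.06 with a pseudocount of 0.1, -0.33 with one of 5 and -4.51 with limma voom on recovered reads and no filter (adjusted p = 0.00433). For Clk it was 1.68 with a pseudocount of 0.1 and 2.69 with voom and no filter (adjusted p = 0.146), and 0.06 to 1.07 with each library left out. The cause was not tested. Leaving out a library gave shifts of -0.41 to 0.88 for Clk to per. kis had -0.16 with quantile normalization. The scalings moved the median of all tested genes from -0.15 to -0.01 (median of ratios), 0.02 (TMM) and -0.05 (quantile), and genes higher and lower from 1856 and 2583 to 2231 and 2180, 2291 and 2119, and 2116 and 2271. Of 20 named genes called among the pathway lists and the relatives by protein family, 17 kept their call in every setting and slmb, brm and nocte did not. The cause was not tested. Replicate numbers showed no sign of pairing the libraries. Deviations of same-numbered libraries had correlations of -0.03, 0.04 and -0.01, and those of differently numbered ones ran from -0.04 to 0.04. A shared sort or preparation is not excluded by these values. With the replicate block 1855 genes were higher and 2573 lower, with the same clock genes called. The count models listed as alternatives were not run, and limma voom on recovered reads, chosen after seeing the data, took their place. Depth limits Clk, vri and cry, where 3 reads correspond to 0.0711 to 0.161 CPM.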
